A study of Zea mays and Triticum urartu with 3 samples.

Results

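The loci described here held most of the fragments counted at listed loci in 2 maize leaf RNA libraries. The libraries are a CENH3 RIP library and its input. A locus is 1 entry of a deposited expression table, either an annotated gene or a stretch assembled from the reads of that library. Each entry carried an FPKM (fragments per kb of transcript per 1000000 mapped fragments) with a lower and an upper confidence limit. The number of sequenced fragments behind the entry, called implied fragments, was derived as (2 × FPKM/(upper limit − FPKM)) squared. Loci with 100 or more implied fragments on chromosomes 1 to 10 were taken, which gave 298 RIP loci and 188 input loci, 486 of the 91385 loci listed in both tables. The 298 RIP loci were 0.664% of the 44886 loci listed on these chromosomes and 1.09% of the 27464 with a value above 0. The 188 input loci were 0.414% of 45462 and 1.00% of 18713. Since the loci were chosen on these values, their fragments and shares are a description.

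RNA immunoprecipitation (RIP) recovers RNA that is held, directly or through other molecules, by a protein that an antibody pulls down. CENH3 is the histone H3 variant that replaces the ordinary H3 in centromeric nucleosomes and marks the site of the kinetochore. In any RNA library a few very abundant transcripts, or repeats that gather reads from many copies, can take up much of the sequencing and lower the share left for every other locus.

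Both libraries came from young leaves of the inbred line B73, grown in a greenhouse, with 1 library per group, so nothing reported here could be checked against replicates and no test was run. The leaves were cross-linked with formaldehyde, the chromatin was digested with DNase I, and ribosomal RNA was removed from the RIP RNA with a depletion kit. The labels name an anti-CENH3 antibody for the RIP library and none for the input library, although both carry the same extraction text, and they do not say how many plants were pooled. Positions refer to the build B73 RefGen_v4 and are counted from 1. The identifiers could not be paired with gene names here, so loci are given by position. As a check of the tissue, the input table listed 54 chloroplast loci, of which 50 were above 0, while the RIP table listed none.

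The implied fragments of all listed loci summed to 472295 in RIP and to 744101 in input. A share of a library below is the percentage of that sum, not of all its sequenced fragments. The study's merged-fragment totals were far greater for both libraries, so shares of all sequenced fragments would be far smaller. Limits given beside a share are the deposited FPKM limits carried over, and they cover counting error only. The 298 RIP loci held 59.0% of their library and the 188 input loci held 72.0% of theirs. The RIP library was spread over more of its top loci. In RIP 25% of the fragments lay in 9 loci and 50% lay in 91, against 1 and 2 loci in input. The top 5 loci held 18.9% of RIP and 60.8% of input, and the top 100 held 51.0% and 70.5%. In RIP 52 loci reached 1000 fragments and 5 of them reached 10000, and in input 19 and 6 did. The input share rested on 1 locus: with the top locus of each library left out of the sums, the members held 56.8% of RIP and 44.5% of input.

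**Figure D1:**
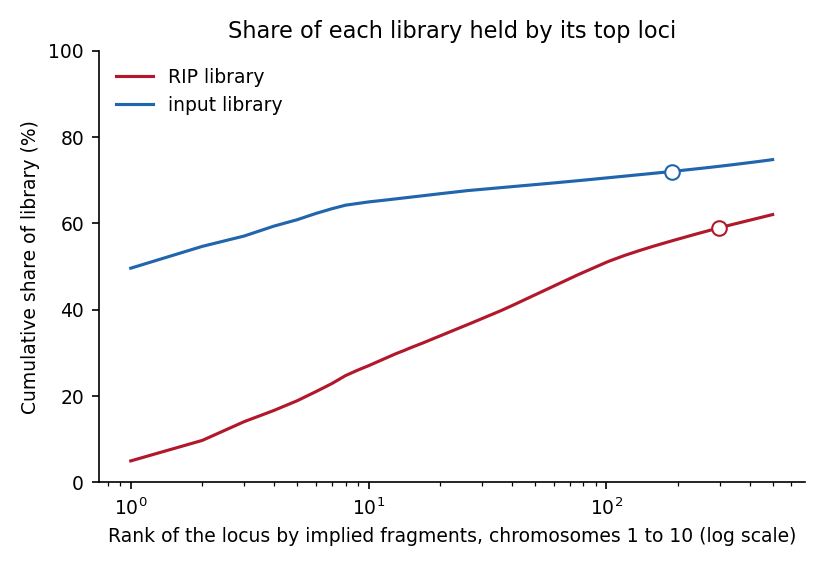
Cumulative share of each library (% of the implied fragments at all its listed loci) against the rank of the locus by implied fragments on chromosomes 1 to 10 (log scale). Open circles mark the last of the 298 RIP loci (59.0%) and of the 188 input loci (72.0%); the input curve starts at 49.6% and the RIP curve at 4.99%.

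The loci fell into 3 classes by what overlapped them in the other library. Of the RIP loci, 106 overlapped an input locus that also had 100 or more fragments, and 192 did not. Of the input loci, 109 overlapped such a RIP locus and 79 did not. The cut of 100 stands for unlike shares of the 2 libraries. An input cut of 80.3 matched the RIP cut as a share of fragments on chromosomes 1 to 10 without the top loci. With it, 120 RIP loci were dominant in both and 178 were RIP only. Of the input loci, 124 were then dominant in both and 114 were input only. With the cut of 100 in both, the shared class held more of the RIP library, and the unshared class more of the input library. Loci dominant in both made up 38.9% of RIP fragments and 10.0% of input fragments, while RIP-only loci made up 20.1% of RIP and input-only loci 62.0% of input. The input contrast rested largely on 1 locus. Without the top locus of each library, loci dominant in both made up 41.0% of RIP and 19.9% of input. RIP-only loci then made up 15.9% of RIP and input-only loci 24.6% of input. Most RIP-only loci were also seen in input at lower depth. Of the 192, 126 overlapped an input locus with 20 to fewer than 100 fragments (14.2% of the RIP library), 43 overlapped one above 0 and below 20 (2.26%), and 23 overlapped no listed input locus (3.56%). Of the 79 input-only loci, 29 overlapped a RIP locus with 20 to fewer than 100 fragments (0.553% of the input library), 24 one above 0 and below 20 (2.88%), 8 one listed at 0 (0.153%) and 18 none (58.4%). An unlisted locus is not a measured 0, because each table lists only the annotated genes and the loci assembled from its own reads. Whether both tables were made and filtered alike is also not given in the sources used here: assembled RIP loci carry a name prefix that differs from the sample's title, and the RIP table lists no chloroplast locus. The 58.4% therefore counts input fragments at places that the RIP table does not list, whatever the RIP library held there. Without the top input locus it was 17.5%.

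Overlapping loci of both tables were joined into regions, which gave 369 regions: 102 dominant in both, 190 RIP only and 77 input only. Of the loci dominant in both, 54 in RIP and 53 in input had the same start and end in both tables. The log2 ratio of the RIP share to the input share had a median of 1.19 over the 102 regions, with quartiles of 0.35 and 3.34 and extremes of −2.88 and 6.06. Over all 4648 regions that were above 0 in both libraries and had 20 or more fragments in sum, the median was 0.35. The RIP share was at least 2-fold above the input share in 54 of the 102 regions (52.9%), beside 32.4% of all regions, and at least 2-fold below it in 5 (4.90%), beside 15.6%. The sign of the median depended on the total by which fragments were divided: it was 0.28 without the top locus of each library, −0.42 with the merged-fragment totals given by the study, and −2.49 on the log2 scale of the deposited FPKM. The balance of the counts moved with it, to 36 regions higher and 36 lower in RIP with the study's totals and to 11 higher and 70 lower by FPKM. The FPKM ratio had the opposite sign to the share ratio in 67 of the 102 regions. The study's total was greater for RIP than for input, whereas the sum over listed loci was smaller. A share ratio above 0 therefore does not show a greater part of all sequenced RIP fragments. The distance to the median of all regions was 0.84. It cannot depend on the library totals, since a total shifts every region alike. The 102 regions were chosen by the same cut on fragments in each library, whereas all regions needed only 20 or more in sum. Comparisons of the 102 with all regions therefore cannot separate a lean toward RIP from an effect of that choice. The median of all regions was exceeded 2-fold or more by 46 of the 102 regions (45.1%), beside 24.9% of all. Another 6 (5.88%) fell short of it by as much, beside 22.1%. By FPKM the distance was 1.82, and these counts were 65 (63.7%) and 9 (8.82%), beside 28.2% and 28.9% of all regions.

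The 5 regions with the highest ratios spanned 1420 to 22520 bp and the 5 with the lowest spanned 308 to 622 bp. At chr6:126730484-126750885, which spans 20402 bp, RIP had 8813 fragments (156 FPKM) and input 209 (22.4 FPKM), a log2 share ratio of 6.06. At chr2:239399094-239421613 the fragments were 8783 and 297, and the ratio was 5.54. At chr5:209654501-209671076, RIP had 22456 fragments (4.75% of the library, limits 4.69 to 4.82) and input 968 (0.130%, limits 0.122 to 0.138), a ratio of 5.19. Each of these ratios rests on at least 209 input fragments. The region chr2:20519841-20526878 had 20518 RIP and 929 input fragments (5.12 by share, but 0.29 by FPKM), and the annotated gene Zm00001d001653 at chr5:143066641-143068060 had 10534 and 518 (5.0). The region chr9:129140043-129148064, the next in order, had 5953 and 306 (4.94 by share and 0.34 by FPKM).

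At the other end, chr1:229766141-229766449 spans 309 bp and had 152 RIP and 1762 input fragments, a log2 share ratio of −2.88. It was followed by chr4:154379364-154379679, with 153 and 872 (−1.86), chr4:244809300-244809669, with 178 and 892 (−1.67), and chr1:19960623-19960930, with 863 and 2867 (−1.08). These 4 regions spanned 308 to 370 bp. The fifth was chr5:78514167-78514788, with 192 and 612 fragments (−1.02), and there the FPKM ratio was 0.68, the other way.

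A few short regions were near the top of both libraries at once. The region chr9:20238180-20238499 had 12237 RIP fragments (2.59%, limits 2.54 to 2.64) and 17831 input fragments (2.40%, limits 2.36 to 2.43), a ratio of 0.11 that turned to −0.54 with no library total, −0.80 without the top loci and −1.50 with the study's totals. On the same chromosome, chr9:20383578-20383889 had 9997 and 10920 fragments (2.12% and 1.47%), and its ratio of 0.53 turned to −0.13, −0.39 and −1.08 under the same settings. The fragments at chr7:158600940-158601246 were 3262 and 6184 (0.691% and 0.831%, ratio −0.27). At chr10:143162790-143163024 the fragments were 4405 and 2757 (0.933% and 0.371%, ratio 1.33, but −0.28 with the study's totals and −2.05 by FPKM). These 4 regions were among the 10 regions dominant in both with the greatest mean share, and each was shorter than 350 bp. FPKM set them far apart: at the first of them 8356 FPKM in RIP stood beside 79552 in input, although their shares were close.

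**Figure D2:**
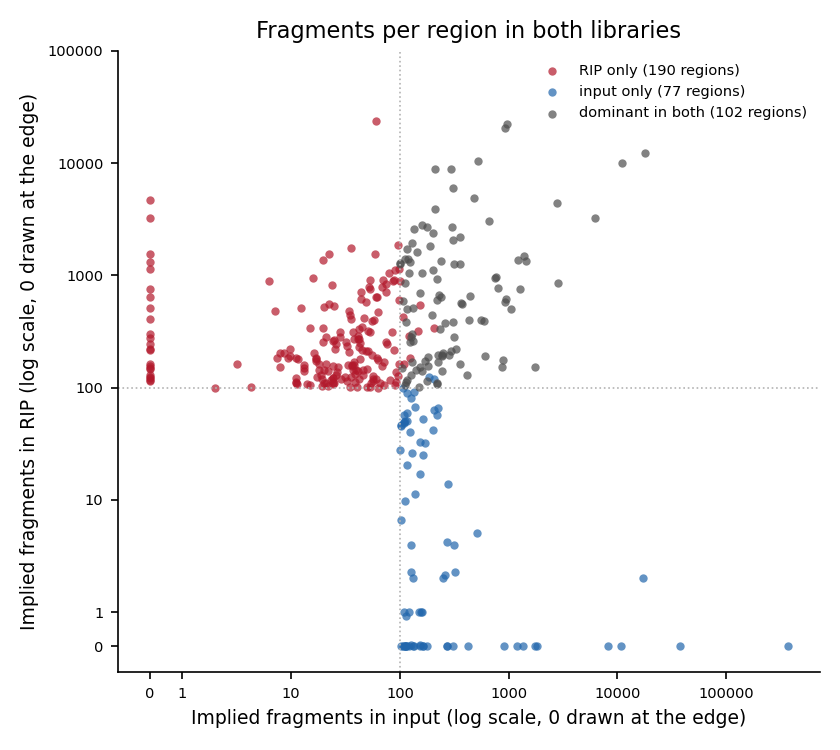
Implied fragments in RIP against input for the 369 regions (both axes log scale, 0 drawn at the edge), with dotted lines at 100 fragments. The 102 regions dominant in both spread widely (rank correlation of shares 0.26); a few coloured points lie past both lines because a region sums several loci that are each below 100 in one library.

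Across the 102 regions the shares of both libraries followed each other only loosely, with a rank correlation of 0.26 and a Pearson correlation of log shares of 0.37. These points share 2 libraries and 1 threshold, so the values describe these regions alone. Regions over 10000 bp had the greatest median log2 share ratio, 2.26 over 22 regions, although all regions over 10000 bp had a median of −0.00. The 22 regions up to 350 bp had a median of 0.79 (0.64 over all regions of that span), the 26 over 350 and up to 2000 bp had 1.63 (1.04) and the 32 over 2000 and up to 10000 bp had 1.13 (0.33). Quartiles of the group over 10000 bp were 0.32 and 4.11, and the medians of the other span groups lay between them. Over all regions the ratio was lower at longer spans (rank correlation −0.22), and over the 102 it was slightly higher (0.19).

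The RIP-only class was led by 1 locus. At chr7:18698220-18701051, RIP had 23556 fragments (4.99% of the library, limits 4.92 to 5.05), the most of any RIP locus, and input had 60.3 fragments (0.00810%). Next came chr9:57391597-57393895 with 4735 RIP fragments (1.00%) and no input locus, and chr1:137111656-137116433 with 3270 (0.692%) and none. The median RIP-only locus had 185 fragments, so the leading locus stood far above its class.

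Among the other leading RIP-only loci, the annotated gene Zm00001d001182 at chr7:96317563-96318746 had 1852 fragments in RIP and 97.0 in input, just under the threshold. The locus chr7:155427865-155434737 had 1758 and 35.4, and chr3:178114275-178120637 had 1562 and 59.4. A second locus on chromosome 1 without an input entry, chr1:137052994-137057406, had 1561 RIP fragments and lay less than 100 kb from the one above. On chromosome 8, chr8:160910019-160917100 had 1551 and 22.5 and chr8:160926961-160932701 had 1373 and 19.6. The tenth, chr6:106902982-106905857, had 1315 RIP fragments and no input locus. Of these 10 loci, 4 had no listed input locus and 6 had between 19.6 and 97.0 input fragments.

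The input-only class was also uneven, and more so. The locus chr10:35055011-35065115, which spans 10105 bp, had 369287 fragments and no listed RIP locus. This was 49.6% of the input fragments at listed loci (limits 49.5 to 49.8). The locus chr2:157586170-157586941 had 37659 fragments within 772 bp (5.06%) and also no RIP locus. At chr10:3776616-3790816 input had 17064 fragments (2.29%), while the same stretch was listed in RIP with 2.00 fragments. The leading 2 loci thus made up most of the input fragments at listed loci and were not in the RIP table at all.

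The next loci of this class were much shorter. The locus chr7:46263322-46263932 had 10847 input fragments (1.46%) in 611 bp, and chr9:20239483-20239787 had 8109 (1.09%) in 305 bp. The locus chr9:20240108-20240400 had 1198 in 293 bp. The remaining 4 of the leading 10 lay close together on chromosome 8, at chr8:173051331-173051636 (1807 fragments), chr8:173076617-173076917 (1761), chr8:173130571-173130875 (1355) and chr8:173115656-173115960 (909). Of these 10 loci, 9 had no listed RIP locus, and the median input-only locus had 141 fragments.

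The median span differed by class. The median span was 2083.5 bp for RIP loci dominant in both and 2764.5 bp for RIP-only loci, beside 3099 bp for all RIP loci above 0. It was 1889 bp for input loci dominant in both and 2086 bp for input-only loci, beside 3688 bp for all input loci above 0. Input loci without a RIP entry had a median span of only 305 bp, with a range of 273 to 10105 bp over the 18 loci. RIP loci without an input entry had a median of 1896 bp, with a range of 527 to 7115 bp over the 23.

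Loci of at most 350 bp were more frequent among the members than among all loci. They were 36 of the 298 RIP loci (12.1%), beside 1.31% of all RIP loci above 0, and 47 of the 188 input loci, beside 4.26% of all input loci above 0. In RIP 28 of the 36 were dominant in both libraries, and in input 11 of the 18 loci without a RIP entry were this short. Long loci were present as well: 49 RIP loci (16.4%) and 33 input loci (17.6%) exceeded 10 kb, beside 10.4% and 13.0% of all loci above 0. Fragments per kb were high by the choice of loci, and differed by class. The median was 382 fragments per kb for RIP loci dominant in both and 77.3 for RIP-only loci, beside 1.14 for all RIP loci above 0. It was 117 and 88.7 for the input classes, and 2213 for the 18 input loci without a RIP entry, beside 1.57 for all input loci above 0.

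**Figure D3:**
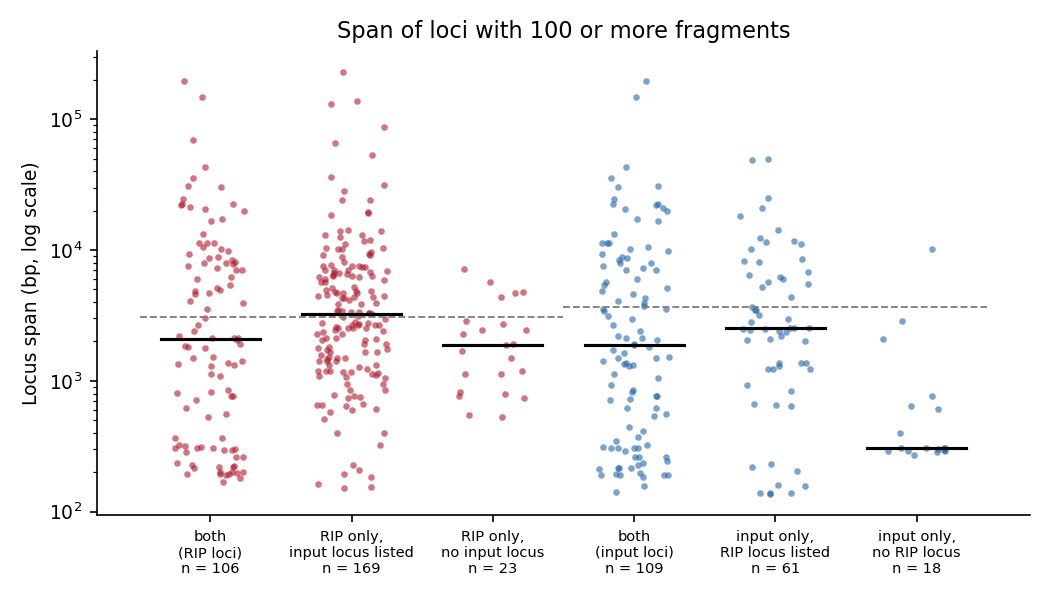
Span in bp (log scale) of each locus with 100 or more fragments, by class (red, RIP loci; blue, input loci); black bars are class medians and dashed lines the medians of all loci above 0 (3099 bp in RIP, 3688 bp in input). The 18 input loci without a RIP entry sit lowest, with a median of 305 bp.

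A narrower window of short spans was also counted. Loci of 270 to 330 bp, a window set after the spans were seen, numbered 11 in RIP and 18 in input. They held 6.32% and 7.60% of their libraries. Most short members lay outside this window, since 36 RIP and 47 input members spanned at most 350 bp. Such loci were 3.69% of the RIP members and 9.57% of the input members, beside 0.553% and 1.57% of all loci above 0. Of the 11 in RIP, 10 were dominant in both libraries and none lacked an input entry. Of the 18 in input, 7 were dominant in both and 11 had no RIP entry. Only 1 of the 11 in RIP and 0 of the 18 in input overlapped a listed annotated gene.

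Some members lay near each other, but most places had no neighbouring member. When members of either library within 100 kb of the next were joined, 333 clusters resulted, of which 214 held a single locus, 101 held 2 and 18 held 3 or more. The 18 held 70 loci, with 6.65% of RIP and 8.02% of input fragments. Much of this came from the same place being counted in both tables: with overlapping members merged first, 8 clusters of 3 or more remained, with 30 regions. Of the 333 clusters, 309 held a single region and 24 held several, with 60 of the 369 regions. How often loci in general lie this close was not measured.

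Among these 18 clusters of 3 or more loci, the one with the greatest summed share of both libraries lay at chr9:20238180-20240400. Within 2.22 kb it held 1 RIP locus and 3 input loci of 293 to 317 bp, with 2.59% of RIP and 3.65% of input, and its first region was dominant in both while the other 2 were in the input table only. The next of the 18, chr10:3763641-3796720, held 4 input loci with 2.36% of input, nearly all of it in the locus of 14201 bp named above, and no RIP member.

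The third of the 18 by share held the most regions. At chr8:173033100-173219938, 7 input loci of 290 to 306 bp were spread over 187 kb and held 6741 fragments, 0.906% of input. Their fragments ranged from 179 to 1807, none overlapped an annotated gene, and no RIP locus was listed at any of them. RIP loci were listed between them, 9 of them above 0, with at most 19 fragments each. An eighth input locus of 283 bp lay among the 7, with 30.0 fragments.

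**Figure D4:**
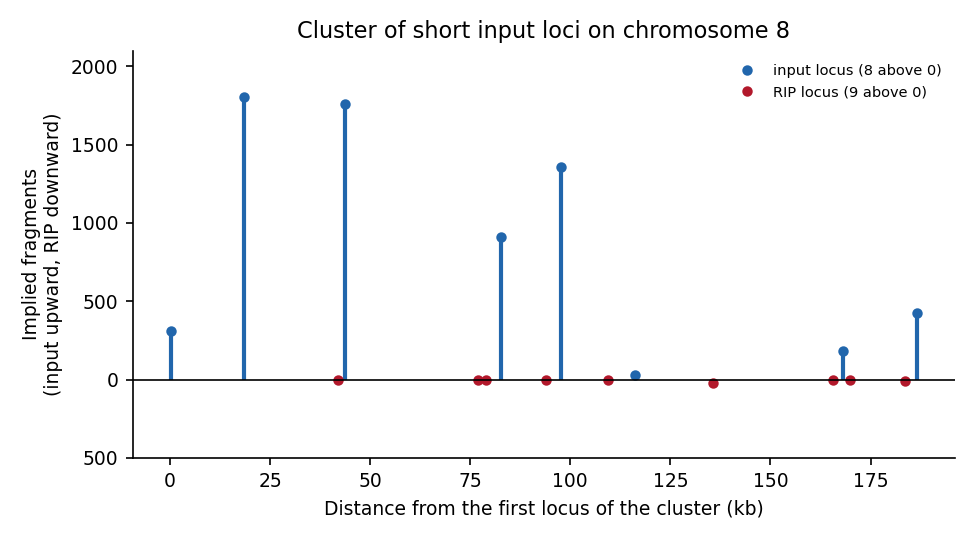
Implied fragments of loci above 0 in the cluster on chromosome 8, against the distance in kb from its first locus (input upward in blue, RIP downward in red; loci listed at 0 are not drawn). The 7 input members reach 179 to 1807 fragments, and the 9 RIP loci between them stay at or below 19.

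The next 3 of the 18 by share held more of RIP than of input. At chr8:160907239-160932701, 3 RIP loci of 2587 to 7082 bp held 3640 fragments (0.771% of RIP), with no input member. At chr2:206603849-206617133, 2 RIP loci with 3043 fragments (0.644%) faced 2 input loci with 663 (0.0891%) in 1 region. At chr5:67016792-67220841, 2 RIP loci held 3125 fragments (0.662%) and 1 input locus held 298 (0.0401%), and all 3 overlapped an annotated gene.

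Smaller clusters also differed in which library held them. At chr5:108325425-108358944, 3 RIP loci held 668 fragments and no input member was present. At chr6:102225125-102274307, 3 input loci of exactly 1233 bp each overlapped an annotated gene and held 556 fragments together, with no RIP member. At chr1:8662564-8664368, 2 RIP and 4 input loci of 194 to 230 bp lay within 1.80 kb. At chr4:93311212-93323239, 2 RIP and 4 input loci made up 3 regions.

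The remaining 8 clusters of 3 or 4 loci each mixed both libraries. They were chr5:167820304-167822807, chr2:152214929-152228537, chr8:167716246-167726768, chr6:150024473-150035717, chr6:160193053-160262031, chr8:123645196-123653326, chr5:215762130-215764950 and chr3:49663556-49811108. Their RIP and input shares added up to between 0.0823 and 0.639 percentage points.

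Most members lay outside the annotated genes listed in the tables. Of the 298 RIP loci, 130 overlapped a listed gene by at least 1 bp (43.6%, 95% Wilson interval over loci 38.1 to 49.3), beside 64.6% of all RIP loci above 0 and 30.2% of those with 20 to fewer than 100 fragments. Of the 188 input loci, 66 did (35.1%, 28.6 to 42.2), beside 48.6% and 26.0%. By class the percentages were 36.8 for RIP loci dominant in both, 47.4 for RIP-only loci, 34.9 for input loci dominant in both and 35.4 for input-only loci. None of the 23 RIP and 18 input loci without an entry in the other table overlapped a listed gene, which the class nearly fixes, since a gene listed in the other table would itself be an entry. These loci are counted in the RIP-only and input-only percentages and lower them. These percentages are lower bounds, because an annotated gene that was absorbed into an assembled locus in both tables is no longer listed. The Wilson intervals here and below treat loci as independent, although some are neighbours, and they do not measure spread between libraries.

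The annotated genes among the members came disproportionately from 1 set of identifiers. On every chromosome the Zm00001d numbers ran along the chromosome in 2 separate series, a larger one of 2165 to 4689 listed genes and a smaller one of 124 to 312. The files do not say what the smaller series is. It held 63 of the 130 RIP loci with a gene (48.5%, Wilson interval 40.0 to 57.0), beside 3.0% of all RIP loci above 0 with a gene, and 22 of the 66 input loci with a gene (33.3%, 23.2 to 45.3), beside 3.55%. Counted over all members, with or without a gene, it was 21.1% in RIP beside 1.94% of all loci above 0, and 11.7% in input beside 1.73%. Both genes named above, Zm00001d001653 and Zm00001d001182, belong to this smaller series.

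The percentage was far higher at the top level of fragments than at any lower one. Among RIP loci that carried an identifier of their own, the smaller series made up 10.8% of those at 0, 2.34% of those above 0 and below 20, 10.1% of those with 20 to fewer than 100 and 52.2% (48 of 92) of those with 100 or more. In input the same levels gave 7.34%, 2.31%, 11.9% and 55.9% (19 of 34). At 100 or more fragments the smaller series held 65.1% of the fragments of such loci in RIP and 57.7% in input. Both RIP classes were alike in this respect, with 35 of 67 RIP-only loci and 13 of 25 RIP loci dominant in both. Of input loci with their own identifier, the series held 17 of 24 dominant in both (70.8%) and 2 of 10 input-only (20%). Over all input members that overlapped a gene, it held 18 of 38 (47.4%) and 4 of 28 (14.3%). The difference between the classes was not tested. This description was chosen after the identifiers of the members were seen.

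**Figure D5:**
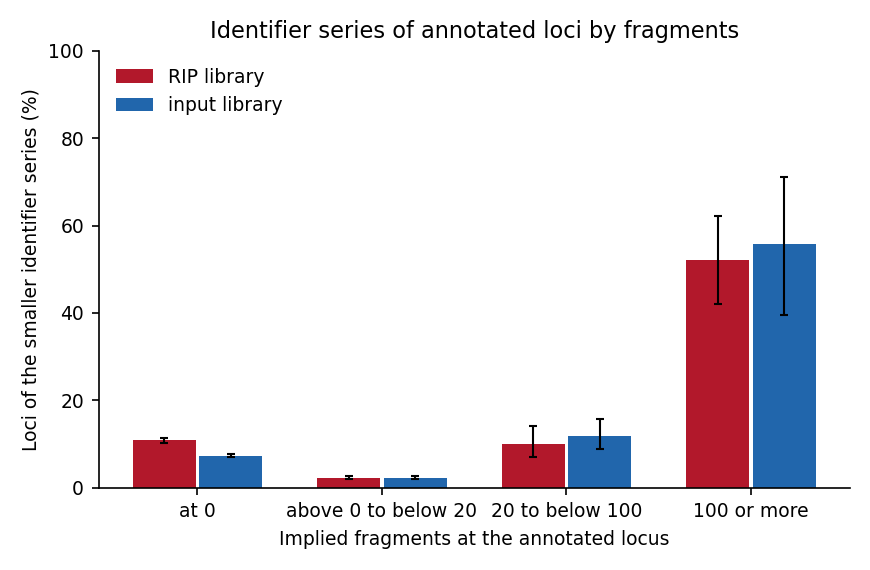
Percentage of loci with an identifier of their own that belong to the smaller identifier series, by implied fragments at the locus. Loci that overlap a gene without carrying its identifier are not counted. Bars are given for each library with 95% Wilson intervals over loci, which do not measure spread between libraries. The percentage is 52.2% in RIP and 55.9% in input at 100 or more fragments, against 11.9% or less at every lower level.

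Members were found on all chromosomes, but their fragments were not evenly placed. RIP members numbered 16 on chromosome 10 to 46 on chromosome 1, or 0.719 to 1.36 per 100 loci above 0. Their fragments were spread, with 12% of the library on chromosome 2, 9.82% on chromosome 5, 7.93% on chromosome 9 and 7.69% on chromosome 7. Input members numbered 9 on chromosome 7 to 25 on chromosome 6, and those of chromosome 10 held 52.7% of the library through the single leading locus. Chromosome 8 had 7 of the 18 input loci without a RIP entry, all in the cluster above.

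Position along the chromosome differed between classes as well. With the last listed locus as the chromosome end, 58 RIP members (19.5%) lay within 10 Mb of an end, beside 18.7% of all RIP loci above 0, and 52 input members (27.7%) did, beside 19.2%. It was 25.5% for RIP loci dominant in both and 16.1% for RIP-only loci. Of the 18 input loci without a RIP entry, 10 (55.6%) lay in that outer window, 7 of them in the cluster on chromosome 8. RIP loci without an input entry had a median distance of 67.1 Mb from the nearer end, beside 36.0 Mb for all RIP loci above 0. In the outer window lay 4 of these 23 loci (17.4%), close to the 18.7% of all RIP loci above 0.

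Members near the threshold could have fallen on either side of it. The 3 RIP loci just above it had 100, 100.2 and 100.8 fragments and the 3 just below had 99, 99.6 and 99.8. In input the values were 100.3, 100.4 and 100.8 above and 99.6, 99.6 and 99.8 below. In all, 42 RIP and 39 input members had fewer than 120 fragments, and 50 and 51 loci had 80 to fewer than 100. Counting error alone at 100 fragments is wider than these gaps.

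The fragments and the FPKM ranked the members differently. One FPKM stood for 0.0433 to 316 fragments among the RIP members and for 0.00175 to 18.9 among the input members. For loci up to 350 bp the median was 0.444 fragments per FPKM in RIP and 0.0946 in input, and for those over 2 kb it was 54.6 and 5.67. Of the 10 members with the most fragments, 3 in RIP and 5 in input were also among the 10 with the highest FPKM. In input, 4 loci of 136 to 139 bp had 58349 to 96310 FPKM from only 116 to 222 fragments.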

How the data were processed

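The deposited values were FPKM per locus with confidence limits, which the authors made with Cufflinks (version not given in the sources used here). The submitters' processing notes also name CASAVA and TopHat2 2.0.12, and the build B73 RefGen_v4. FPKM divides by the depth of 1 library and by an effective length, and TopHat2 can place reads of repeats at several copies or at 1 of them, so a locus may hold reads of other copies. Both maize tables were read; the third table of the series, of wheat, was not used here. Starts were converted from 0-based to 1-based. Implied fragments assume that each limit lies 2 SDs away, with Poisson counting. The value was whole within 0.02 at 94 RIP (31.5%) and 80 input members (42.6%), and lower and upper limits gave fragments that differed by at most 0.120%. A simulated table was used to test the scripts.

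Loci overlapping by at least 1 bp were treated as 1 place. The members and lists were chosen with earlier results of these data known. Named loci are the 10 with the greatest share in each class, the 5 highest and 5 lowest share ratios, all clusters of 3 or more loci (the 6 with the greatest share in more detail) and the 3 loci on each side of the threshold. At most 2 identifiers are printed per direction, since a table of another assembly (NAM-5.0) matched 0 of 33530 identifiers, including 0 of 108 on members. No sequence was available for these loci in the sources used here. Alternatives changed the threshold, limit, overlap, span, totals, scale, gene criterion and cluster gap. Python 3.11.15, pandas 2.3.3, NumPy 2.4.6, SciPy 1.17.1 and matplotlib 3.10.9 were used.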

Additional observations from a re-analysis of the deposited data

Results flagged for a closer look

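Outside chromosomes 1 to 10, 15 mitochondrial loci had 100 or more implied fragments in RIP, against 2 in input. In input, 25 chloroplast loci had 100 or more implied fragments, while the RIP table listed no chloroplast locus.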

How the results depend on the processing

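No paired analysis was possible because each group had 1 library. Of 78 alternatives for the main values, 38 stayed within the limits set for them. Some of the 38 could not move and say nothing about stability. The lower limit mirrors the upper one, and the overlap criterion does not enter the numbers of members. With thresholds of 50 and 200 fragments, RIP loci numbered 560 and 164, input loci 480 and 86, RIP loci dominant in both 220 and 43, input loci dominant in both 224 and 44, RIP-only loci 340 and 121, and input-only loci 256 and 42. With chromosomes 1 to 10 as the total, without the top locus, and by FPKM sums, members held 61.0%, 56.8% and 60.5% of RIP and 74.8%, 44.5% and 34% of input. The median log2 ratio of regions dominant in both was 0.54 with no library total, 0.28 without the top loci, −0.42 with the study's totals, −2.33 by FPKM plus 1 and −2.49 by FPKM. Regions higher in RIP numbered 36 with the study's totals and 11 by either FPKM scale, and those higher in input 10, 12, 36, 70 and 70 under these 5 settings. Over all regions, 33.7% with 10 or more fragments and 35.7% without a filter were higher in RIP, and 16.9% with 10 or more were higher in input. The region chr5:78514167-78514788 turned to 0.68 by FPKM with or without 1 added, and chr10:143162790-143163024 to −0.28 with the study's totals and −2.05 by both FPKM scales. Ratios within 2-fold also changed sign, to −1.50 and −3.25 at chr9:20238180-20238499 and to −1.08 and −2.83 at chr9:20383578-20383889 (study's totals and FPKM). If the locus itself had to carry an identifier, 30.9% of RIP and 18.1% of input loci had a gene. The smaller series was 21.1% of all RIP and 11.7% of all input members, and 55.9% of input loci with their own identifier. Both of these were added after the data were seen. Merging overlapping members left 8 clusters, with 30 regions. The cause of these changes was not tested beyond the change in setting itself. Depth limits loci near 100 fragments, and loci listed in 1 table cannot be called absent from the other library.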
